A study of Mus musculus with 8 samples.

Results

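The dual oxidases and NADPH oxidases are the membrane enzymes whose main known product is superoxide or hydrogen peroxide. The 8 genes considered were the dual oxidases Duox1 and Duox2, their maturation factors Duoxa1 and Duoxa2, the NADPH oxidase catalytic subunits Nox1, Nox4 and Cybb, and the shared small subunit Cyba. They were picked by gene symbol because Duox1 and Duoxa1 had risen in K320E epidermis, so their K320E against Control values are a description, as is whether they passed the all-gene threshold, and support nothing. A probe set naming a single gene was found for 7 of the 8, among 22180 genes measured. Duoxa2 appeared only on a probe set shared with Duoxa1.

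Each of these oxidases carries electrons from NADPH across a membrane to oxygen. Dual oxidases release hydrogen peroxide outside the cell, are switched on by calcium through EF-hand motifs, and leave the endoplasmic reticulum only with a matching maturation factor. In epithelia they are known for host defence and wound signalling, and in the thyroid for hormone synthesis. Cybb is the catalytic subunit of the phagocyte oxidase and needs Cyba as its partner.

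Epidermal total RNA of C57BL/6J newborns, taken at postnatal day 0, was measured on 8 arrays and reported as log2 intensities. In the 4 K320E arrays the genotype is K320E-TwinkleEpi, in which K320E, a mutant of the mitochondrial DNA helicase Twinkle, is expressed under the K14 promoter, which is active in basal keratinocytes. The 4 Control arrays carry the genotype R26-K320E-TwinkleloxP/+, so the K320E allele is named in both groups. The labels do not say that arrays come from separate animals, so errors and p-values cover the spread between arrays alone, part of which may be technical. The mean of 3 Y-linked genes was 8.64 in K320E replicate 3 and 4.75 to 4.82 in the other K320E arrays, and 9.05 in Control replicate 2 and 4.75 to 4.82 in the other Control arrays, so each group held arrays that differed in sex-linked transcripts.

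Twnk, which encodes Twinkle, lay between 8.91 and 9.28 in K320E and between 6.55 and 6.95 in Control. The keratinocyte list (5 of 6 genes measured) averaged 12.28 to 12.39 in K320E arrays and 12.19 to 12.26 in Control arrays. It was led by the suprabasal keratins Krt10 and Krt1, with 0 genes past limma's threshold and 1 at an unadjusted p under 0.05. That gene, Krt14, had a log2 fold change of 0.27 (limma adjusted p = 0.141). Every K320E array lay above every Control array for Krt14, as for 5.5% of all genes. A gene passes the threshold when its limma adjusted p over all genes is under 0.05. For comparison with the list counts, 3288 of all 22180 genes had an unadjusted limma p under 0.05. Correlations between arrays ran from 0.987 to 0.994 within groups and from 0.976 to 0.992 between them.

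The mouse genes Duox2, Duoxa2, Duoxa1 and Duox1 lie side by side in that order on chromosome 2, each oxidase divergent from its own maturation factor. The promoter windows of both pairs are shown because Duoxa1 and Duox1 were high together in K320E while Duox2 was not. Sequences are from RefSeq, read 5′ to 3′ along the gene, and hold 250 bases before and 50 from the annotated start site on. Capitals mark matches to any of 7 searched motifs.
Duox1 promoter, GRCm38.p6 chr2:122315422-122315721, plus strand: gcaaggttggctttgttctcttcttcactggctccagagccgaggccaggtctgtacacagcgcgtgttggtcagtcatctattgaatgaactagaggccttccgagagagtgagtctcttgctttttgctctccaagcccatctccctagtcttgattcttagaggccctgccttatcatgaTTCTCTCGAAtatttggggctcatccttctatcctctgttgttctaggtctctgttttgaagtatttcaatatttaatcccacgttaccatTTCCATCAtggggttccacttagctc
Duoxa1 promoter, GRCm38.p6 chr2:122313681-122313980, minus strand: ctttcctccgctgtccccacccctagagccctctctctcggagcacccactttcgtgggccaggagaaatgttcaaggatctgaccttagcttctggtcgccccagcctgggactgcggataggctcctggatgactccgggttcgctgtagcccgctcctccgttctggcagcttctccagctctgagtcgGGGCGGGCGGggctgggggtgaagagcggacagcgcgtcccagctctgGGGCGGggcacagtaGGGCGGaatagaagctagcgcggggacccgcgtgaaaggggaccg
Duox2 promoter, GRCm38.p6 chr2:122298178-122298477, minus strand: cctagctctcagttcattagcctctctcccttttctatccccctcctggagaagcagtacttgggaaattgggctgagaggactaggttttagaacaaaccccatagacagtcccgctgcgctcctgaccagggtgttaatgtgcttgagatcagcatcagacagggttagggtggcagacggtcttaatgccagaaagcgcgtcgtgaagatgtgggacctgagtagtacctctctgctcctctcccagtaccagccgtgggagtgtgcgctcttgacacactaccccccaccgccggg
Duoxa2 promoter, GRCm38.p6 chr2:122298650-122298949, plus strand: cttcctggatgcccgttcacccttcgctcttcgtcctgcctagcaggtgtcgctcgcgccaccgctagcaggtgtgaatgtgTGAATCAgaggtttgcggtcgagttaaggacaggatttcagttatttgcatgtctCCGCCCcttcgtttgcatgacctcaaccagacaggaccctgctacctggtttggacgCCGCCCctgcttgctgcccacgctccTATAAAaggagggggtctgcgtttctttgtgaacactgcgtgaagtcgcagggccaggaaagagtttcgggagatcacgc

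The motifs, searched on both strands, were an AP-1 site (TGANTCA), a C/EBP-ATF response element (TGATGNAA), an antioxidant response element (TGACNNNGC), STAT sites with 3 (TTCNNNGAA) or 4 (TTCNNNNGAA) spacer bases, a GC box (GGGCGG) and a TATA box (TATAAA). Positions are those of the first matched base, with the start site as +1. The Duox1 window held 1 STAT site with 4 spacer bases, at -67, a form known to bind STAT6, and 1 C/EBP-ATF element, at position 25 on the opposite strand. Among 32841 RefSeq mouse windows of the same length, 6.95% held the first motif and 3.97% the second. The Duoxa1 window held 4 GC boxes, the first pair overlapping, and none of the other motifs. A GC box was present in 35.7% of all windows.

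The neighbouring pair had other letters. In the Duox2 window 0 of the 7 motifs matched. The Duoxa2 window held 1 AP-1 site at -168, 2 GC boxes on the opposite strand and a TATA box at -30, motifs found in 7.81%, 35.7% and 13.6% of windows. The Duoxa1 window was 65.7% G and C with 22 CpG dinucleotides, against 46.7% and 6 for Duox1, 55.3% and 10 for Duox2, and 56.7% and 19 for Duoxa2. The start sites of the windows shown for Duoxa1 and Duox1 were 1942 bases apart, and those of Duox2 and Duoxa2 were 673 bases apart. The whole RefSeq extents of Duoxa1 and Duox1, over all annotated transcripts, overlap by 754 bases on opposite strands, so the window shown is not the only annotated start for at least 1 of them. These matches describe letters only; binding was not measured.

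Duox1 encodes DUOX1, a dual oxidase known from airway and skin epithelium. Its log2 intensity was 8.16, 7.41, 7.71 and 7.40 in the 4 K320E arrays, against 6.61, 6.73, 6.96 and 6.59 in the 4 Control arrays. Every K320E array lay above every Control array, with a gap of 0.44 between the nearest pair, and K320E replicate 1 was the highest. The means were 7.67 ± 0.36 in K320E and 6.72 ± 0.17 in Control (SD, n = 4 each). The log2 fold change was therefore 0.95 (SE 0.17), or 1.93-fold.

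Duoxa1 encodes the protein that takes DUOX1 to the cell surface. It measured 8.29, 8.08, 8.32 and 8.11 in K320E arrays, against 7.06, 7.42, 7.31 and 6.75 in Control arrays. Again the groups did not overlap, here with a gap of 0.66, and the K320E arrays lay closer together than the Control arrays. The means were 8.20 ± 0.12 in K320E and 7.13 ± 0.30 in Control (SD, n = 4 each), which is a difference of 1.07 on the log2 scale (SE 0.14), or 2.10-fold. Within each array, log2 Duox1 minus log2 Duoxa1 averaged -0.53 ± 0.27 in K320E and -0.41 ± 0.22 in Control, so the ratio of the pair differed by less than its spread.

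Duox2 encodes the dual oxidase best known from the thyroid and gut. It measured 5.24, 5.32, 5.24 and 5.32 in K320E arrays, against 5.17, 5.12, 5.21 and 5.31 in Control arrays. The groups overlapped, and the log2 fold change was 0.080 (SE 0.058). Duox2 was also the 1 measured member whose mean over all arrays fell in the lowest 33.3% of genes, below 5.69; the other 6 passed that filter. Probe sequences were not used here, so the part of signal shared between the paralogs Duox1 and Duox2 was not tested.

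Duoxa2, the partner of DUOX2, has no value of its own. The probe set that the annotation gives to both Duoxa2 and Duoxa1 measured 5.34, 5.35, 5.38 and 5.29 in K320E arrays, against 5.36, 5.30, 5.27 and 5.27 in Control arrays. Its log2 difference was 0.043 (SE 0.048), against 1.07 for the probe set of Duoxa1 alone, and it was assigned to neither gene.

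**Figure D1:**
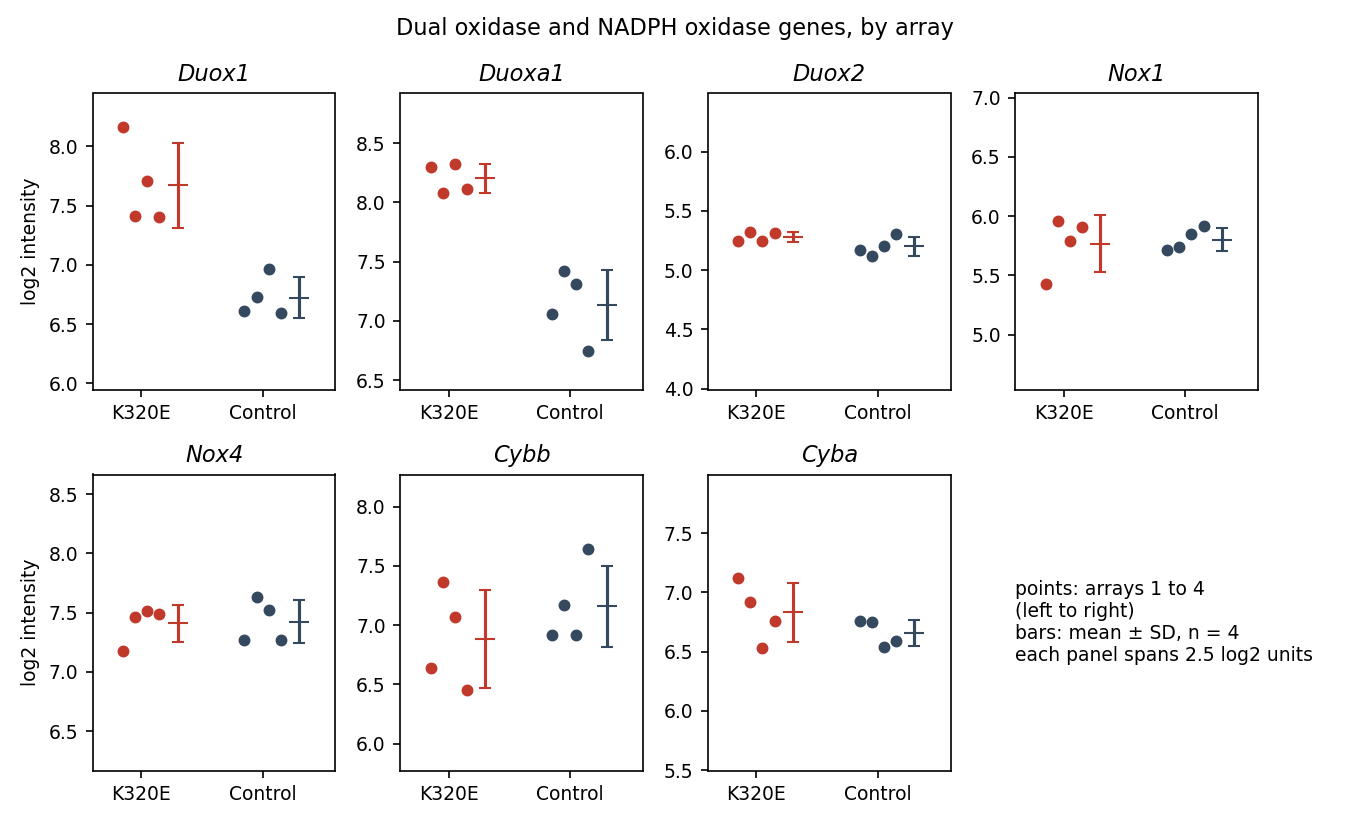
Log2 intensity (vertical axis) of each of the 7 measured genes in the K320E arrays (red, left) and the Control arrays (grey, right); points are arrays and bars the mean ± SD, n = 4. The 2 groups are apart for Duox1 (gap 0.44) and Duoxa1 (gap 0.66) and overlap for the other 5 genes.

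Nox1, Nox4, Cybb and Cyba, the NADPH oxidase genes among the members, showed no such separation. Nox1, a catalytic subunit best known from colon epithelium, measured 5.42, 5.95, 5.79 and 5.91 in K320E arrays, against 5.71, 5.74, 5.85 and 5.91 in Control arrays. Its lowest and its highest arrays were both K320E, and the log2 fold change was -0.035 (SE 0.11). Nox4, which makes hydrogen peroxide without cytosolic organisers and is best known from kidney, vessels and fibroblasts, measured 7.18, 7.46, 7.51 and 7.49 in K320E arrays, against 7.27, 7.63, 7.52 and 7.27 in Control arrays. K320E replicate 1 was its lowest array, the other 3 lay inside the Control range, and the log2 fold change was -0.011 (SE 0.11). K320E replicate 1 was therefore the highest array for Duox1 and the lowest for both Nox1 and Nox4.

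Cybb encodes the gp91phox subunit of phagocytes. It measured 6.64, 7.36, 7.07 and 6.46 in K320E arrays, against 6.91, 7.17, 6.92 and 7.64 in Control arrays. The groups overlapped, although K320E replicates 1 and 4 lay below every Control array, and the log2 fold change was -0.28 (SE 0.22). Macrophage markers had 0 of 9 genes past limma's threshold and 1 at an unadjusted p under 0.05, with a list mean of 6.80 to 7.05 in K320E arrays and 6.79 to 7.13 in Control arrays. The brightest probe sets among them were those of the lysosomal protein gene Cd68 (log2 fold change 0.51, adjusted p = 0.137) and the complement gene C1qb (-0.13, adjusted p = 0.75).

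Markers of other phagocytes were counted in the same way. Langerhans and dendritic cell markers had 2 of 6 genes lower, where 0.194% of all genes passed downward. These 2 were the MHC class II chains H2-Aa, which fell by 1.05 (SE 0.08, limma adjusted p = 0.0021), and H2-Ab1, which fell by 0.98 (SE 0.13, limma adjusted p = 0.013). The list mean was 5.75 to 5.85 in K320E and 6.12 to 6.26 in Control. Another MHC class II chain, H2-Eb1, had -0.19. The other 3 measured markers of these cells had -0.067 (Cd207, which encodes langerin), -0.032 (Itgax) and -0.040 (Flt3), none past the threshold. Cd207 and Flt3 averaged 5.61 and 5.36 over all arrays, below the 5.69 that bounds the lowest 33.3% of genes. Itgax, at 5.75, lay just above it, so these values are limited in what they can show. Neutrophil markers had 0 of 8 past the threshold and 2 at an unadjusted p under 0.05, with a list mean of 5.65 to 5.76 in K320E and 5.29 to 5.63 in Control. The chemokine receptor Cxcr2 had 1.32 (limma adjusted p = 0.147), or 1.74 without Control replicate 3 (limma adjusted p = 0.0058). The collagenase Mmp8 had 0.37 (limma adjusted p = 0.322). Ly6g, which defines neutrophils, had 4.79 in both groups, again below 5.69, which limits what its value can show. Camp (4.77), Retnlg (5.11), Ltf (5.24) and Ngp (5.48) also averaged below 5.69 over all arrays. The count and the list mean of these neutrophil markers are therefore limited in what they can show. H2-Ab1 lost its call without K320E replicate 3 (limma adjusted p = 0.051). In bulk epidermis, fewer cells of a type and less RNA per cell cannot be told apart, and the part of these cells in the Cybb level was not tested.

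Cyba encodes p22phox, which stabilises the NOX1, NOX4 and CYBB proteins but is not needed by dual oxidases. It measured 7.12, 6.92, 6.53 and 6.76 in K320E arrays, against 6.76, 6.75, 6.54 and 6.59 in Control arrays. In K320E, 3 of the 4 arrays lay above every Control array and 1 below, with a log2 fold change of 0.18 (SE 0.12). Of these, K320E replicate 4 was above by very little (6.761 against 6.757), and replicate 3 below by very little (6.532 against 6.538).

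Of the 7 measured members, 2 passed limma's threshold upward and 0 downward, where over all genes 0.685% passed upward and 0.194% downward. The groups did not overlap, with K320E higher, for the same 2 members and for 5.5% of all genes; K320E was the lower group without overlap for 0 members and for 3.75% of all genes. Since Duox1 and Duoxa1 are the reason for the choice, nothing is read from these counts. Duoxa1 passed in 7 of the 8 fits that left out 1 array (log2 fold change 0.94 to 1.16), losing its call without K320E replicate 3, and Duox1 passed in 3 of them (0.78 to 1.04), losing it without K320E replicate 3 or 4 or Control replicate 1, 2 or 4. The directions of Nox1 and Nox4 changed with the array left out, and those of Duox2, Cybb and Cyba did not.

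**Figure D2:**
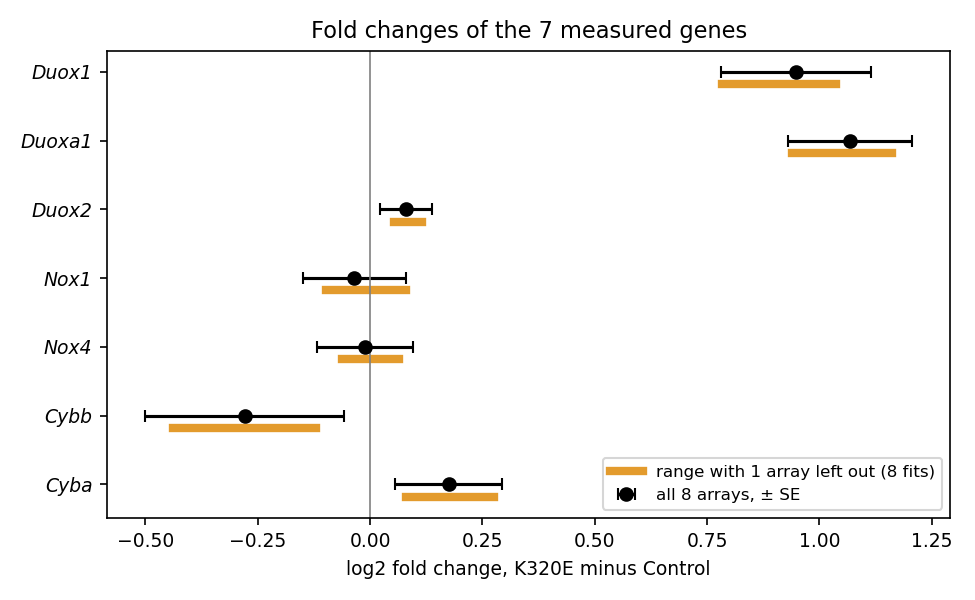
Log2 fold change, K320E minus Control (horizontal axis), of each measured gene with its SE (black), and the range over the 8 fits that left out 1 array (orange). Duoxa1 (1.07) and Duox1 (0.95) stand to the right, and the other 5 genes lie between -0.28 and 0.18.

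The level of hair structure genes was lower on average in K320E, where both genes were higher. The hair structure list (14 of 15 genes measured) averaged 7.12 to 7.56 in K320E and 7.56 to 8.94 in Control, with 0 genes past limma's threshold, 10 at an unadjusted p under 0.05, all 14 fold changes negative and a median of -0.79. Its brightest probe sets were those of Tchh, which encodes trichohyalin (log2 fold change -1.32, limma adjusted p = 0.092), and the inner root sheath keratin Krt25 (-1.16, limma adjusted p = 0.163). Among the Control arrays, replicate 4 had the highest hair level (8.94) and the lowest Duoxa1 (6.75), and replicate 2 the lowest hair level (7.56) and the highest Duoxa1 (7.42). Duox1 was also lowest in Control replicate 4 (6.59) but highest in replicate 3 (6.96, hair level 7.77). In K320E, replicate 4 had the highest hair level and the lowest Duox1, and replicate 3 the lowest hair level (7.12) and the highest Duoxa1 (8.32). The highest Duox1 (8.16) was in K320E replicate 1 (hair level 7.46), and the lowest Duoxa1 (8.08) in K320E replicate 2 (hair level 7.26). K320E replicate 4 and Control replicate 2 both had a hair level of 7.56; Duoxa1 was 8.11 in that K320E array and 7.42 in that Control array, and Duox1 was 7.40 and 6.73. With the hair level as a covariate, K320E was higher by 0.81 (SE 0.24) for Duox1 and by 0.69 (SE 0.10) for Duoxa1. Both lost their call (adjusted p by limma 0.352 for Duox1 and 0.131 for Duoxa1), and of 22180 genes 1 passed, Twnk itself. The calls of all list genes named here, including Smox and Epgn, ended in that fit too. Every K320E array had a lower hair level than every Control array (highest K320E 7.556, lowest Control 7.563). Hair level and genotype were therefore hard to tell apart in that fit, for every gene. The part of hair content in the rise of Duox1 and Duoxa1 was not tested.

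**Figure D3:**
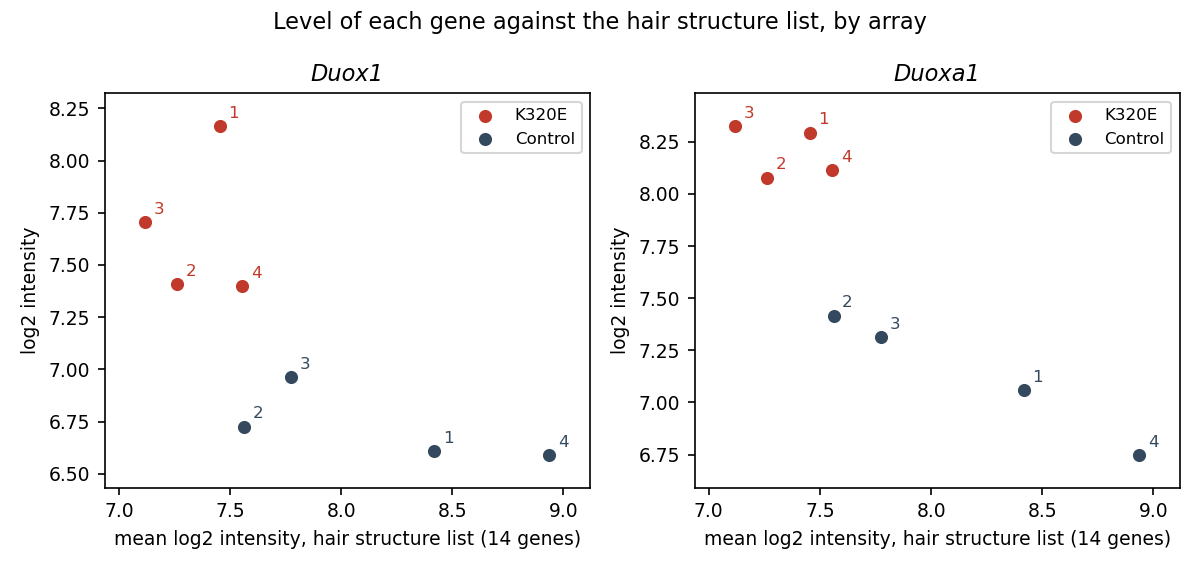
Log2 intensity of Duox1 (left) and Duoxa1 (right) against the mean log2 intensity of 14 hair structure genes, 1 point per array with its replicate number, K320E in red and Control in grey. K320E replicate 4 and Control replicate 2 share a hair level of 7.56 and differ in both genes (Duoxa1 8.11 and 7.42).

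Markers of other cells that the epidermal preparation could hold were set beside the same 2 genes. Skeletal muscle markers had 0 of 7 genes past limma's threshold and 1 at an unadjusted p under 0.05, all 7 fold changes positive and a median of 0.94. Their mean was 7.65, 6.93, 8.32 and 7.14 in the 4 K320E arrays, against 6.43, 7.36, 7.29 and 6.35 in the 4 Control arrays, so the groups overlapped. Within each group the arrays fell in the same order for this mean as for Duoxa1 (K320E replicates 3, 1, 4 and 2, and Control replicates 2, 3, 1 and 4, from high to low). Duox1 had another order in each group (K320E replicates 1, 3, 2 and 4, and Control replicates 3, 2, 1 and 4). With the hair level as a covariate, the median of the muscle list was -0.11. The leading genes were the troponin gene Tnnt3 (log2 fold change 1.03) and the myosin light chain gene Mylpf (1.08). Mast cell markers (6 genes, led by Cpa3 and Cma1) averaged 5.32 to 6.00 in K320E and 5.14 to 5.61 in Control. Fibroblast markers (6 genes, led by Dcn and Col1a2) averaged 7.40 to 8.01 in K320E and 7.18 to 7.85 in Control, and endothelial markers (6 genes, led by Cdh5 and Pecam1) 5.59 to 6.09 in K320E and 5.60 to 5.71 in Control. In each of these 3 lists 0 genes passed limma's threshold and 0 had an unadjusted p under 0.05. The mast cell genes Mcpt4, Cma1, Tpsb2, Fcer1a and Ms4a2 averaged below 5.69, the bound of the lowest 33.3% of genes. The endothelial genes Kdr, Tie1, Cldn5 and Emcn and the fibroblast gene Lum lay there too, which limits what these lists can show. T cell markers (5 of 6 genes measured) averaged 6.11 to 6.66 in K320E and 6.52 to 6.86 in Control. In that list 4 genes had an unadjusted p under 0.05 and 1 fold change was positive. Past the threshold, upward, was 1 gene, where 0.685% of all genes passed upward. That gene, Thy1, a surface protein of T cells, fibroblasts and neurons, rose by 0.69 (limma adjusted p = 0.0495), passing in 1 of the 8 fits without 1 array, while Cd3g, a chain of the T cell receptor complex, had -1.19 (limma adjusted p = 0.136), Cd3d -0.75 (limma adjusted p = 0.064), Cd3e -0.38 and Cd2 -0.23. Cd3d passed without K320E replicate 2 (limma adjusted p = 0.023), as did Cd3e (0.048). The part of these cells in the oxidase values was not tested.

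The measured genes on either side of the dual oxidase cluster were read in order along the chromosome, 4 on each side. Of these 8, 0 passed limma's threshold and 1 had an unadjusted p under 0.05, with log2 fold changes from -0.23 to 0.11. Next to Duox2 lay Terb2, a meiotic telomere gene (log2 fold change 0.00081, SE 0.05), then Trim69, B2m and Patl2. Next to Duox1 lay the adaptor gene Shf (0.11, SE 0.12), then the nucleoside transporter gene Slc28a2, Bambi-ps1 and Slc28a2b. B2m, the light chain of MHC class I, was at 12.53 ± 0.10 in K320E and 12.55 ± 0.06 in Control (SD, n = 4 each).

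**Figure D4:**
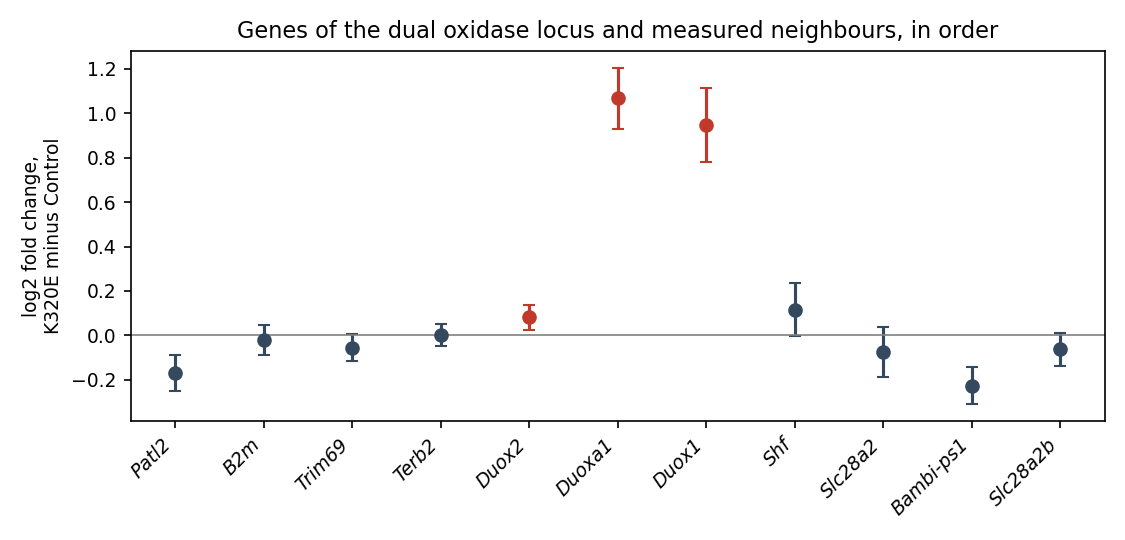
Log2 fold change ± SE, K320E minus Control (vertical axis), of measured genes in their order along the dual oxidase region (horizontal axis, not to scale), with the dual oxidase genes in red. Duoxa1 (1.07) and Duox1 (0.95) lie above all others, and the 8 flanking genes lie between -0.23 and 0.11.

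The other parts of the NADPH oxidase complexes did not pass the threshold. Of 9 further subunits and organisers, 7 were measured; 0 passed limma's threshold and 3 had an unadjusted p under 0.05, with a median log2 fold change of 0.0027 (all genes -0.00052). The farthest from 0 were Cybc1, a chaperone of the phagocyte oxidase, at -0.20 (SE 0.06, limma adjusted p = 0.164), and Nox3, the inner ear oxidase, at -0.15 (SE 0.05, limma adjusted p = 0.23). For both, every K320E array lay below every Control array, as for 3.75% of all genes. For Rac1 (0.11) every K320E array lay above, as for 5.5% of all genes. Nox3 averaged 5.02 over all arrays, below the 5.69 that bounds the lowest 33.3% of genes.

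Enzymes that take up the products of these oxidases were likewise not called. Of 3 superoxide dismutases, 0 passed limma's threshold and 0 had an unadjusted p under 0.05; the extracellular Sod3 had 0.15 and the mitochondrial Sod2 0.11. Of 15 measured genes of peroxide removal, 0 passed limma's threshold and 2 had an unadjusted p under 0.05 (median 0.072); the peroxidase Gpx8 of the endoplasmic reticulum had -0.37 (SE 0.13, limma adjusted p = 0.229), and sulfiredoxin Srxn1, which repairs peroxiredoxins, had 0.36 (SE 0.13, limma adjusted p = 0.251) and passed without Control replicate 3 (0.50, limma adjusted p = 0.033). Of 4 heme peroxidases, which use hydrogen peroxide to make antimicrobial oxidants or to cross-link proteins, 0 passed limma's threshold and 0 had an unadjusted p under 0.05. Among these Lpo, the lactoperoxidase of secretions, had 0.21 (SE 0.10) and the eosinophil peroxidase Epx 0.13 (SE 0.07).

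Among other enzymes that make hydrogen peroxide, 1 of 14 measured rose, where 0.685% of all genes rose. Smox, the spermine oxidase of polyamine breakdown, averaged 9.02 ± 0.18 in K320E and 8.18 ± 0.13 in Control (SD, n = 4 each), higher by 0.84 on the log2 scale (SE 0.10, limma adjusted p = 0.0085), and passed in all 8 fits that left out 1 array. In that list 6 genes had an unadjusted p under 0.05 and the median was 0.086. The sulfhydryl oxidase Qsox1 had 0.60 (limma adjusted p = 0.122) and the monoamine oxidase Maoa 0.33 (limma adjusted p = 0.097). For both, every K320E array lay above every Control array, as for 5.5% of all genes.

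Cytokine signals known to raise dual oxidase transcripts in human airway cells were not called with all 8 arrays. Of 8 measured genes of interleukin 4, interleukin 13 and interferon gamma signalling, 0 passed limma's threshold and 2 had an unadjusted p under 0.05 (median 0.065). The receptor chain Il4ra had 0.50 (SE 0.15, limma adjusted p = 0.172) and passed without Control replicate 3 (0.67, limma adjusted p = 0.01), and Stat6, the transcription factor downstream of it, had 0.28 (SE 0.11, limma adjusted p = 0.288). The cytokine genes themselves had -0.015 for Il13, 0.077 for Il4 and -0.10 for Ifng. Il4 and Ifng averaged 5.07 and 5.64 over all arrays, below the 5.69 that bounds the lowest 33.3% of genes. Il13, at 5.80, lay just above it, so these values are limited in what they can show. Of 12 genes of calcium entry and its receptors, 0 passed limma's threshold and 0 had an unadjusted p under 0.05 (median 0.054). The farthest from 0 were the nucleotide receptor P2ry4 (0.23, SE 0.22) and the keratinocyte channel Trpv3 (0.22, SE 0.12).

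In human airway epithelium, DUOX1 is known to act through the sheddase ADAM17 and release of EGF receptor ligands. Of 10 measured genes of that route, 3 rose and 0 fell (median 0.27), where 0.685% of all genes rose, and 4 had an unadjusted p under 0.05. This list, like the others, was chosen with earlier results of these data known, so nothing is read from such counts. The 3 that rose were ligands: Epgn by 2.76 (SE 0.18, limma adjusted p = 0.00069), Hbegf by 0.94 (SE 0.17, limma adjusted p = 0.049) and Tgfa by 0.51 (SE 0.08, limma adjusted p = 0.021). Epgn passed in all 8 fits that left out 1 array, Tgfa in 2 and Hbegf in 1. Of the other measured ligands, Ereg had 0.80 (limma adjusted p = 0.107), with K320E higher without overlap, as for 5.5% of all genes, and Btc had -0.18. Adam17 itself had -0.074 and its iRhom cofactors had 0.32 (Rhbdf1) and 0.22 (Rhbdf2), none of them past the threshold, and the receptor Egfr had 0.17.

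**Figure D5:**
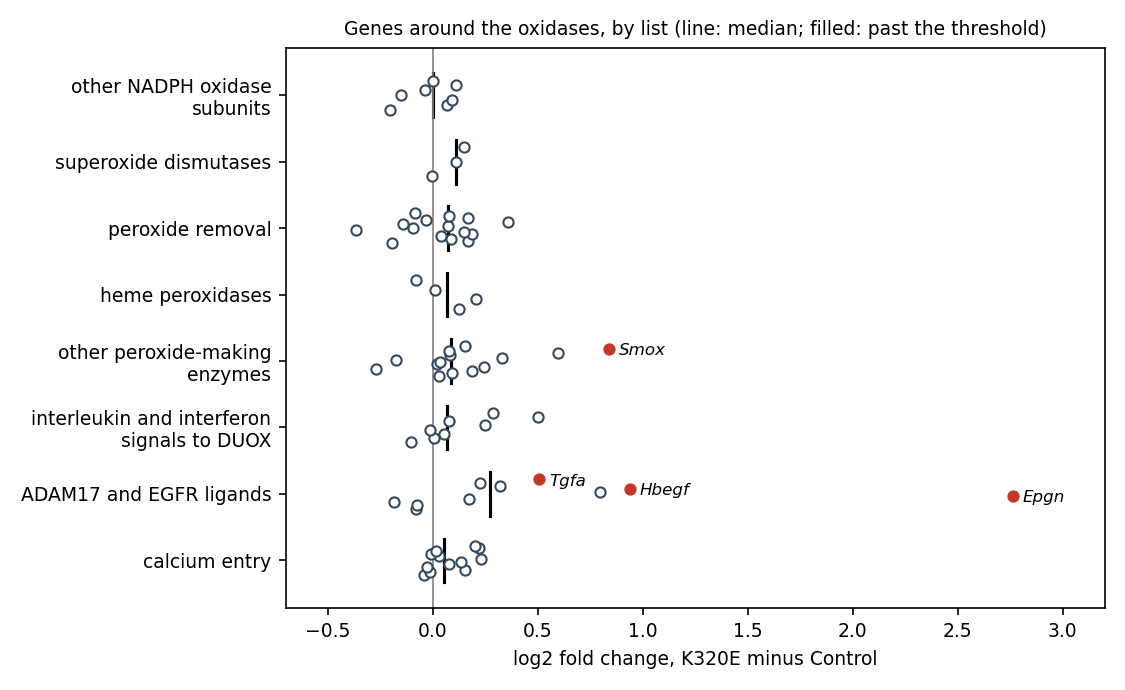
Log2 fold change, K320E minus Control (horizontal axis), of each measured gene in 8 lists around the oxidases (rows); vertical lines are list medians and filled points passed limma's threshold. Smox (0.84) and the EGF receptor ligands Tgfa (0.51), Hbegf (0.94) and Epgn (2.76) are the filled points.

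Duox1 and Duoxa1 were also compared with every other gene by the shape of their levels over the 8 arrays. By Pearson correlation, with no test, the 5 genes most like Duox1 were Itgb4, Cldnd1, Sfn, Plaur and Lypd3, and the 5 most like Duoxa1 were Sprr2e, Plekhb2, Sprr2j-ps, Sprr1b and Pla2g4e. Since the 2 genotypes lie apart for both genes, this measure mostly ranks genes by the difference between genotypes. Their deviations from the group means correlated at 0.54 over the 8 arrays, which share any array-wide effect.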

How the data were processed

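Members and gene lists were chosen with earlier results of these data known. The authors deposited log2 intensities for 33793 probe sets on 8 arrays, whose medians lay between 6.06 and 6.11. Per the labels' protocols, RNA was amplified with Applause WT-Amp Plus ST and labelled with biotin; how background correction, summarisation and normalisation were done is not given in the sources used here. GEO's platform annotation gave 1 symbol to 23521 probe sets, several to 1814, and 8458 stay unnamed here; the brightest probe set naming 1 gene stood for it. limma 3.58.1 (R 4.3.3; lmFit, eBayes) compared 4 K320E with 4 Control arrays, genotype being the only term, with Benjamini-Hochberg adjustment over 22180 genes. The number of arrays limits the precision. The scripts were tested on simulated data. Named genes are the members, up to 4 called genes of each list or otherwise its 2 farthest from 0, the 2 brightest markers of each cell type, the 5 genes most like Duox1 and Duoxa1, and 4 locus neighbours a side. The cytokine genes, Ly6g, Cd207, Itgax, Flt3, Cd3d, Cd3e, Cd2, Qsox1, Maoa, Ereg, Btc, Adam17, its cofactors and Egfr were added after their values were seen. So were Rac1, Krt14 and the markers named for averaging below 5.69. Promoters are RefSeq windows (GRCm38.p6), found for all 8 members. Alternatives covered normalisation, probe set choice, a low-value filter, the variance model, array weights, the replicate block, covariates and left-out arrays.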

Additional observations from a re-analysis of the deposited data

Results flagged for a closer look

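Nox4 had 1 K320E array far from the others: K320E replicate 1 measured 7.18, and its gap to the next array (7.46) was 0.847 of the whole range of the 4 K320E arrays; this share is above Dixon's 95% critical value for 4 samples. Chance marks about 1 in 20 such groups, and 14 groups were examined (7 genes in 2 genotypes).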

How the results depend on the processing

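Over all genes 195 passed limma's threshold. This number was 114 with the replicate block, 1 with the hair structure covariate and 53 to 173 in the 8 fits without 1 array. Of the members, 2 passed; 1 passed (Duoxa1) when every probe set was tested, with the replicate block, with the Y-linked covariate and without Control replicates 2 and 3 together, 0 with the hair structure covariate, and 0 to 2 without 1 array. The cause was not tested. The list genes past the threshold passed in 10 of the 11 alternatives other than leaving out 1 array for Smox, Epgn and H2-Aa, in 9 for H2-Ab1, 8 for Tgfa, 5 for Thy1 and 4 for Hbegf. Under alternatives 13 other list genes gained a call, 3 of them in the lists around the oxidases: Il4ra and Ereg without Control replicates 2 and 3 together, Il4ra and Srxn1 without Control replicate 3. The others were Cxcr2, Cd3d, Cd3e and 7 hair structure genes, all 7 of these lower without Control replicates 2 and 3 together. With the lowest 33.3% of genes left out, Duox2 has no value. The called members, Duox1 and Duoxa1, kept their sign under every alternative. Of 132 member fold changes under alternatives, 128 moved by less than the spread between arrays; the exceptions were Duoxa1 (0.69), Duox2 (0.16) and Nox4 (-0.24) with the hair structure covariate, and Duoxa1 (1.30) without Control replicates 2 and 3. Of 342 list medians, 22 moved by more. Whether the shared replicate numbers pair the arrays cannot be settled with 4 arrays per group. Deviations of same-numbered arrays correlated between -0.065 and 0.137, and 4 of 8 arrays correlated best with their own number. Duox2 lay near the bottom of the intensity range, which limits what its value can show.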

Other observations

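When deviations from the group means were used in place of levels, the 5 genes most like Duox1 over the 8 arrays were Tmem214, Fgf1, Tm2d2, Lamb3 and Abca7, and the 5 most like Duoxa1 were Eif4e, Fam135a, Alox5ap, Olfr1303 and Slc33a1. None of these 10 passed the threshold between genotypes and none is among the 5 genes most like Duox1 or Duoxa1 by level.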
